A study of Mus musculus with 4 samples.

Results

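Aerocytes, or aCap cells, are the large endothelial cells that line the gas-exchange surface of the alveolus, and 10 genes known from them are described here in sorted lung endothelial cells of mice. The genes are Car4, Fibin, Tbx2, Rprml, Apln, Chst1, Prx, Emp2, Pmp22 and Sirpa. They were picked by symbol from the deposited table of 17915 coding genes, and all 10 are in it. Alveolar capillaries are a mosaic of aerocytes and general capillary cells (gCap). Aerocytes are thin and spread around alveoli next to type 1 epithelium, while gCap cells act as the progenitors that can renew both kinds. Aerocytes carry the ligand apelin and gCap cells its receptor, and in the adult mouse lung high Car4 marks the aerocyte.

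Both groups carried the genotype Cdh5-CreER;aSMA-LSL-Dre;NR1 and both received tamoxifen 5 times and 6 weeks of transverse aortic constriction (TAC), a narrowing of the aorta that is followed by lung fibrosis. Cdh5-CreER is an inducible recombinase driven in endothelium, and Dre, a second recombinase, was placed under the alpha smooth muscle actin (aSMA) gene, so that endothelial cells were ZsGreen+ and turned tdTomato+ once that gene had been active. Bulk RNA sequencing gave 2 tdTomato+ and 2 ZsGreen+ libraries, each labelled a biological replicate, and no mouse without TAC or without the recorder is among them. The labels give neither age nor whether libraries came from separate or pooled mice, so p-values measure only the spread between these libraries. The comparison asks whether aerocyte genes differ between endothelial cells that did and did not pass through aSMA activation.

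The libraries held 17050673 to 18574737 counts over coding genes. Acta2, the gene that the recorder reads, stood at 304 and 528 CPM in tdTomato+ and at 87.6 and 82.9 CPM in ZsGreen+ libraries, where CPM is the count scaled to a common library size. Defining endothelial markers were high in every library, with the cadherin Cdh5 between 1112 and 2422 CPM and the adhesion molecule Pecam1 between 1809 and 2104 CPM. Over all genes, edgeR called 40 of 13177 tested, 22 higher and 18 lower in tdTomato+ libraries at an adjusted p under 0.05. That split became 14 and 1 when libraries were scaled to pan-endothelial markers, 22 and 9 on log2(TPM + 1) and 16 and 6 on log2(TPM + 0.1). DESeq2 gave 202 and 124, and edgeR with no filter on low counts 83 and 45. Without tdTomato+ replicate 1 the split was 11 higher and 6 lower, and without tdTomato+ replicate 2 it was 0 and 4. Without ZsGreen+ replicate 1 it was 203 and 101, and without ZsGreen+ replicate 2 it was 10 and 16.

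Of the 10 aerocyte genes, 9 lay lower in both tdTomato+ libraries than in either ZsGreen+ library, and Sirpa lay higher in both. Across all tested genes 18.2% lay below in this way and 19.9% above. The 9 lower genes stood at 20.3% (Fibin) to 68.8% (Apln) of their fitted ZsGreen+ level, while Sirpa stood at 205% of it. Fibin passed the filter on low counts only through its ZsGreen+ libraries, and that filter favours its direction. It is included in the 9 here and in the 9 at an unadjusted p below. The lowest of the others was Prx at 29.9%. Only Prx, periaxin, fell by edgeR's test over all genes, which called 0.137% of genes lower; no member was called higher, against 0.167% of genes. At an unadjusted p under 0.05 edgeR had 9 members lower (3.15% of all genes) and 1 higher (5.61% of all genes), and DESeq2 called 6 members lower and 0 higher. Of 13835 genes with a DESeq2 adjusted p, 0.896% were called lower and 1.46% higher. The median log2 fold change, tdTomato+ over ZsGreen+, was -1.02 over the 10 members and -0.01 over all tested genes. The genes were chosen with earlier results of these libraries known, so their shared direction is a description. Fewer aerocytes in a sort and less of these RNAs per aerocyte cannot be told apart in bulk libraries.

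**Figure D1:**
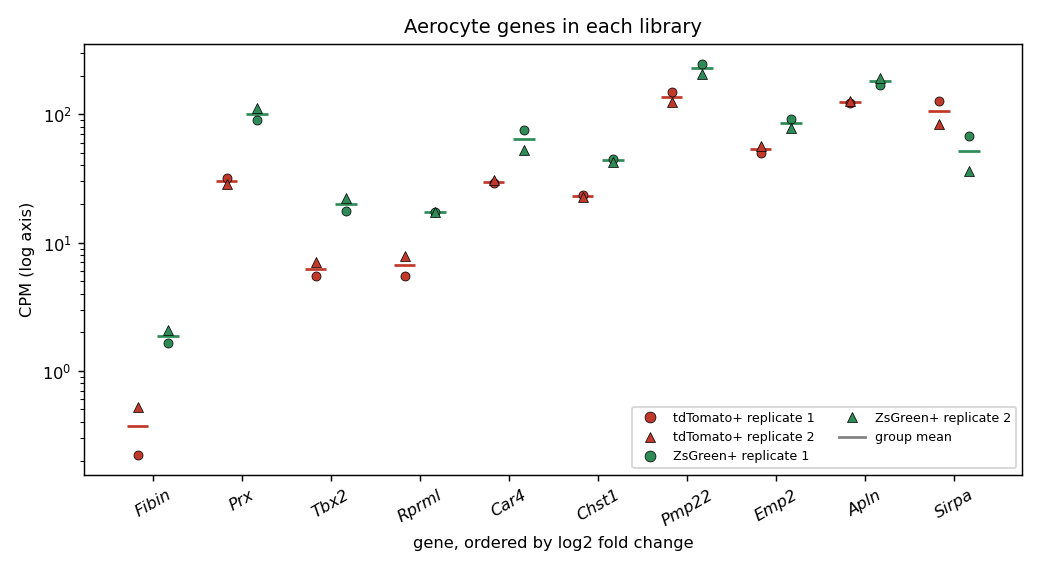
CPM on a log axis for each of the 10 aerocyte genes in the 2 tdTomato+ and 2 ZsGreen+ libraries, with circles for replicate 1, triangles for replicate 2 and a line at each group mean. In 9 genes both tdTomato+ points lie below both ZsGreen+ points, and in Sirpa both lie above.

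Prx encodes periaxin, a scaffold protein of myelinating Schwann cells that is also known from lung capillary endothelium. It stood at 31.8 and 28.6 CPM in tdTomato+ libraries and at 90.4 and 111.8 CPM in ZsGreen+ libraries. The groups were well apart: the lowest ZsGreen+ value was 2.85 times the highest tdTomato+ value. Prx fell by 1.74 on the log2 scale (SE 0.20, edgeR adjusted p = 0.0304), from 101 ± 15.2 to 30.2 ± 2.22 CPM (SD, n = 2 per group). The call ended without tdTomato+ replicate 1 (edgeR adjusted p = 0.114) and without tdTomato+ replicate 2 (edgeR adjusted p = 0.295), with log2 fold changes of -1.82 and -1.65. It also ended with libraries scaled to pan-endothelial markers (edgeR adjusted p = 0.111) and on log2(TPM + 1) (limma adjusted p = 0.12), where the log2 fold changes were -1.49 and -1.52.

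The gene (NCBI Gene 19153) spans chr7:27499305-27520041 on the plus strand of GRCm38. An antisense gene, Gm15541, overlaps exons of Prx in GENCODE M21 and is not a row of the count table. The sources used here do not state whether counting used strand, and reads of this pair cannot be told apart without it. Schwann cell markers are given beside Prx because these cells also make periaxin. Sox10, the transcription factor that defines them, had no count in any library. Mbp, myelin basic protein, lay opposite to Prx at 4.73 and 4.31 against 1.33 and 0.767 CPM (a log2 fold change of 2.11, SE 0.53, edgeR adjusted p = 0.237). Mag stood at 2.48 and 1.26 against 1.33 and 0.11 CPM, with overlapping groups. Cnp stood at 84.8 and 126 against 137 and 129 CPM, lower in both tdTomato+ libraries, the same order as Prx. The Cnp difference was small and not called (-0.34 log2, 95% interval -0.86 to 0.19). The part of Schwann cell RNA in the Prx values was not tested. Of periaxin's known partners, dystroglycan, Dag1, stood at 154 and 192 CPM against 172 and 175 CPM (a log2 fold change of -0.00, 95% interval -0.44 to 0.44). Drp2, the dystrophin-related protein that links periaxin to dystroglycan in Schwann cells, had at most 0.0525 CPM. Its relative utrophin, Utrn, stood at 184 and 205 against 89.4 and 125 CPM (a log2 fold change of 0.86, SE 0.21, edgeR adjusted p = 0.231), and the giant scaffold protein Ahnak at 357 and 342 against 306 and 421 CPM.

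The bases just before the start of 3 genes are shown because these genes lay more than 2-fold lower in tdTomato+ libraries and the stretch printed, from the RefSeq promoter table of GRCm38.p6, holds no annotated exon. The table's Prx entry starts 19 bases inside the gene, and its printed stretch was ended at the gene's first base. Each is written 5′ to 3′ on the gene's strand, with capitals for matches to the motifs searched. They lie at chr7:27499074-27499304 for Prx, chr11:84957504-84957753 for Car4 and chr11:103649259-103649508 for Rprml, all on the plus strand.
Prx: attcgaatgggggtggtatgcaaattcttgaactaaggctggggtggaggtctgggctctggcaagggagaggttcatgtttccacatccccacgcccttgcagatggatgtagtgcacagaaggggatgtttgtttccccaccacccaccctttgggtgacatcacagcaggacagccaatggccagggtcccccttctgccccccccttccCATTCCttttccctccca
Car4: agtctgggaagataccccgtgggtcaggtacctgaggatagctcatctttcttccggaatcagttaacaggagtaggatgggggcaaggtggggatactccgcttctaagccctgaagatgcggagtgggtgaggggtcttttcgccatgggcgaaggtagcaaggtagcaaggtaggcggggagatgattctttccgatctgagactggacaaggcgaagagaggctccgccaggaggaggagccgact
Rprml: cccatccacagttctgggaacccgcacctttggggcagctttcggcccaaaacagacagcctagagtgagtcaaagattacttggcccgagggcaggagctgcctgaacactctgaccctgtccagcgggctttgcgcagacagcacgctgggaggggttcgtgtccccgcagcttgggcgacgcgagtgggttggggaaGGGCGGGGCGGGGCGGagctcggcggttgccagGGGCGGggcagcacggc

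The search ran on both strands over the 250 bases before each start. For T-box factors, the family of Tbx2, it used the half-site GGTGTGA. For ETS factors, which act throughout endothelium, it used the letters CCGGAAGT. For forkhead factors it used TGTTTAC, and the effectors of the Hippo pathway, the TEAD factors, were searched as GGAATG. The GC box, bound by SP and KLF factors, was searched as GGGCGG and the TATA box of the core promoter as TATAAA. Of the 10 members, 8 had a promoter entry, with 11 windows in all since Pmp22 has several starts. The Prx window holds 1 TEAD match on the opposite strand, 18 to 13 bases before the gene span. Windows of Chst1, Fibin and Pmp22 hold 1 each as well, and 12.6% of 32851 windows in the table do. The Rprml window holds 4 GC boxes, and among the first 3 each overlaps the next. GC boxes also lie in windows of Emp2 (2), Apln (1) and Pmp22 (3 in each window that held any). Of all windows 32.7% hold at least 1. The Car4 window matched none of the 6 motifs, and no member's window held the T-box half-site, which 3.3% of all windows do. These are matches of letters and not measured sites.

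Car4, the carbonic anhydrase anchored on the luminal surface of capillary endothelium that interconverts carbon dioxide and bicarbonate, is the gene by which aerocytes are most often recognised. It stood at 28.9 and 30.8 CPM in tdTomato+ libraries and at 76.1 and 53.2 CPM in ZsGreen+ libraries. The tdTomato+ values were close together and the ZsGreen+ values 1.43-fold apart, without overlap. Its log2 fold change came to -1.11 with an SE of 0.23 (edgeR adjusted p = 0.156). DESeq2 did call it lower (DESeq2 adjusted p = 0.00397). Car4 (NCBI Gene 12351) spans chr11:84957754-84966054 on the plus strand of GRCm38.

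The other carbonic anhydrases did not share one direction. Of 14 family members present, edgeR tested 9, 5 with a log2 fold change below 0 and 4 above, and only Car8, a catalytically inactive relative, was called, at 31.1 and 33.1 CPM against 10.2 and 10.2 CPM (a log2 fold change of 1.65, edgeR adjusted p = 0.0465). The mitochondrial Car5b stood at 18.7 and 21.6 against 6.26 and 8.60 CPM (a log2 fold change of 1.44, SE 0.29, edgeR adjusted p = 0.151). The cytosolic Car2 stood at 54.0 and 61.4 against 78.6 and 87.9 CPM (a log2 fold change of -0.53, SE 0.18).

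The 5 genes whose scaled levels over the 4 libraries were most like those of Car4, by Euclidean distance of centred log2 CPM among 8750 candidates, were Hspb8 (distance 0.22), Galnt18 (0.23), Ptgfrn (0.32), Celsr2 (0.32) and Ly6a (0.35). None of these 5 was called, and their log2 fold changes ran from -1.22 (Celsr2) to -0.79 (Ly6a). Among the members, Chst1 (0.38), Emp2 (0.46) and Pmp22 (0.47) were nearest to Car4 and Sirpa (2.23) was farthest. With 4 libraries such a likeness mostly repeats the contrast between the groups.

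Tbx2 is a T-box transcription factor, mainly a repressor, and marks aerocytes among lung capillary cells. It stood at 5.45 and 7.04 CPM in tdTomato+ libraries and at 17.7 and 22.4 CPM in ZsGreen+ libraries. The groups did not overlap, the nearest pair of values being 2.52-fold apart. For Tbx2 the log2 fold change was -1.68, with an SE of 0.29 and an edgeR adjusted p of 0.112. The gene was called lower without ZsGreen+ replicate 1 (edgeR adjusted p = 0.0348), with no filter on low counts (edgeR adjusted p = 0.0364) and by DESeq2 (DESeq2 adjusted p = 0.000361). Tbx2 (NCBI Gene 21385) lies at chr11:85832615-85841948 of GRCm38, on the plus strand.

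Of 14 T-box family rows 7 were tested and none was called. Its nearest paralog Tbx3 was the most abundant, at 146 and 118 against 188 and 199 CPM (a log2 fold change of -0.55, SE 0.19, edgeR adjusted p = 0.421). Tbx1, a T-box factor known from lymphatic endothelium, stood at 2.64 and 1.58 against 10.6 and 15.8 CPM (a log2 fold change of -2.65, SE 0.42, edgeR adjusted p = 0.0915). Lymphatic markers also lay lower in tdTomato+ libraries, with a summed level of 195 and 158 against 487 and 595 CPM.

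Rprml encodes reprimo-like, a small relative of the cell cycle inhibitor reprimo. It stood at 5.50 and 7.88 CPM in tdTomato+ libraries and at 17.3 and 17.2 CPM in ZsGreen+ libraries. The ZsGreen+ values were nearly equal and 2.18 times the higher tdTomato+ value. This is a log2 fold change of -1.37, with an SE of 0.30 (edgeR adjusted p = 0.184), and DESeq2 called it lower (DESeq2 adjusted p = 0.013). Its relative Rprm had at most 0.315 CPM in any library and was not tested. Rprml (NCBI Gene 104582) is a short gene at chr11:103649509-103650580, plus strand, GRCm38.

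Fibin, fin bud initiation factor homolog, is a secreted protein and the scarcest member. It had 4 and 10 counts in tdTomato+ libraries and 26 and 38 counts in ZsGreen+ libraries, or 0.220 and 0.525 CPM against 1.65 and 2.08 CPM. Its ZsGreen+ libraries carried it past the filter on low counts, and that filter favours a difference of this direction in so scarce a gene. Fibin had a log2 fold change of -2.30, with an SE of 0.74 (edgeR adjusted p = 0.388) and a 95% interval of -4.05 to -0.55, the widest interval of the 10 genes. Fibin (NCBI Gene 67606) lies at chr2:110360925-110362993 on the minus strand of GRCm38.

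Apelin, the peptide ligand encoded by Apln, is made by aerocytes and signals to the receptor Aplnr on gCap cells. Apln stood at 122 and 127 CPM in tdTomato+ libraries and at 169 and 193 CPM in ZsGreen+ libraries. It was the least lowered member: the groups did not overlap, but the nearest values were only 1.33-fold apart. With a log2 fold change of -0.54, its SE was 0.17 and its 95% interval -0.94 to -0.13 (edgeR adjusted p = 0.381), and none of the 14 alternatives called it. Aplnr stood at 527 and 402 CPM against 625 and 488 CPM, where the groups overlap (log2 fold change -0.26, SE 0.23, 95% interval -0.80 to 0.28). Counts of Apln per count of Aplnr were 0.232 and 0.317 in tdTomato+ and 0.271 and 0.396 in ZsGreen+ libraries, also overlapping. Apln (NCBI Gene 30878) lies on the X chromosome at chrX:48025146-48034853, minus strand, GRCm38.

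Chst1 encodes a sulfotransferase that adds sulfate to galactose in keratan sulfate and related glycans. It stood at 23.7 and 22.8 CPM in tdTomato+ libraries and at 45.0 and 42.9 CPM in ZsGreen+ libraries. Its replicates were the closest of all members, at most 1.05-fold apart within a group. Chst1 had a log2 fold change of -0.92, with an SE of 0.19 (edgeR adjusted p = 0.164), and DESeq2 called it lower (DESeq2 adjusted p = 0.0163). Levels of its family members lay closer together between the groups: Chst2 stood at 13.8 and 19.3 against 12.1 and 19.9 CPM (a log2 fold change of 0.04, 95% interval -0.73 to 0.82) and Chst7 at 30.5 and 35.2 against 37.2 and 38.8 CPM (a log2 fold change of -0.21, 95% interval -0.67 to 0.25). Chst3 stayed at or under 2.42 CPM and Chst4 and Chst5 at or under 0.57 CPM. Chst1 (NCBI Gene 76969) lies at chr2:92599632-92615252, plus strand, GRCm38.

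Emp2 and Pmp22 are related tetraspan membrane proteins, epithelial membrane protein 2 and peripheral myelin protein 22. Emp2 stood at 49.6 and 57 CPM in tdTomato+ libraries and at 92.5 and 78.8 CPM in ZsGreen+ libraries. Pmp22 stood at 149 and 125 CPM in tdTomato+ libraries and at 249 and 208 CPM in ZsGreen+ libraries. Neither pair of groups overlapped, with the nearest values 1.38-fold apart in Emp2 and 1.39-fold apart in Pmp22. Log2 fold changes were -0.68 for Emp2 (SE 0.18, edgeR adjusted p = 0.28) and -0.74 for Pmp22 (SE 0.19, edgeR adjusted p = 0.27), and DESeq2 called Pmp22 (DESeq2 adjusted p = 0.0395).

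The same family held a gene with the opposite order. Emp3 stood at 257 and 343 CPM in tdTomato+ and at 183 and 183 CPM in ZsGreen+ libraries (log2 fold change 0.71, SE 0.21, edgeR adjusted p = 0.324). Emp1, the most abundant, stood at 1604 and 1322 against 1464 and 1584 CPM, with a log2 fold change of -0.06 (95% interval -0.54 to 0.42). Type 1 epithelial cells also express Emp2. None of their 8 markers was called or at 0, 3 had a log2 fold change below 0 and 5 above, and their summed level was 92.3 and 118 CPM in tdTomato+ and 163 and 248 CPM in ZsGreen+ libraries. The markers below 0 were Pdpn at -2.03, Clic5 at -1.20 and Hopx at -0.91 log2. Each lay below in both tdTomato+ libraries, as 18.2% of all tested genes did. Pdpn and Clic5, which endothelial cells also express, carried the order of the sum. Pdpn stood at 15.4 and 6.88 against 47.6 and 42.9 CPM, and Clic5 at 51.8 and 57.9 against 83.6 and 168 CPM. Of the 5 above 0 the largest was Akap5 at 1.35 log2, with overlapping groups. The receptor Ager stood at 15.8 and 30.9 against 21.6 and 19.8 CPM, with overlapping groups. The part of type 1 cell RNA in the Emp2 values was not tested. Emp2 (NCBI Gene 13731) lies at chr16:10281749-10313968 on the minus strand and Pmp22 (NCBI Gene 18858) at chr11:63128982-63159547 on the plus strand of GRCm38.

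Sirpa, signal regulatory protein alpha, is an inhibitory receptor for CD47 best known from macrophages and other myeloid cells, and was the only member with the opposite direction. It stood at 128 and 84.0 CPM in tdTomato+ libraries and at 67.4 and 36.0 CPM in ZsGreen+ libraries. The groups did not overlap, but the gap between them, 1.25-fold, was smaller than the gaps within them, 1.52-fold and 1.87-fold. Sirpa had a log2 fold change of 1.04, with an SE of 0.34 and an edgeR adjusted p of 0.397. It was called higher without ZsGreen+ replicate 1 (log2 fold change 1.56, edgeR adjusted p = 0.0418) and was 0.65 without ZsGreen+ replicate 2 (edgeR adjusted p = 0.338).

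Myeloid markers are given beside Sirpa. All 12 markers tested had a log2 fold change above 0, none was called, and 5 lay higher in both tdTomato+ libraries than in either ZsGreen+ library, against 19.9% of all tested genes. The summed level of the 12 was 5925 and 2749 CPM in tdTomato+ libraries and 3261 and 671 CPM in ZsGreen+ libraries. In both groups replicate 1 was higher than replicate 2, in the marker sum as in Sirpa, and of the 12 only the scavenger receptor Marco had the other order, at 11.3 and 55.2 against 5.0 and 12.7 CPM. The pan-leukocyte Ptprc stood at 20.7 and 13.8 against 8.61 and 3.51 CPM, and Lyz2, lysozyme, after its values were seen, is named as the most abundant marker at 3953 and 1969 against 2269 and 469 CPM. None of the 12 was at 0. The part of myeloid RNA in the Sirpa difference was not tested.

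The paralogs Sirpb1a, Sirpb1b and Sirpb1c, known from myeloid cells, had log2 fold changes of 1.20, 1.42 and 1.10, none called. Sirpa counts were whole in every library, but they are estimated counts. Whole totals do not show whether reads that also match these paralogs were assigned to Sirpa. Ptpn6, the phosphatase SHP-1 of blood cells that SIRPA recruits, stood at 29.3 and 17.4 against 16.8 and 5.15 CPM (a log2 fold change of 1.09, SE 0.54). Ptpn11, the widely expressed phosphatase SHP-2, stood at 113 and 116 against 125 and 113 CPM. The ligand Cd47 stood at 166 and 163 against 155 and 196 CPM (a log2 fold change of -0.10, 95% interval -0.54 to 0.35). Sirpa (NCBI Gene 19261) lies at chr2:129591042-129632228, plus strand, GRCm38.

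Of 5 further genes known for aerocytes none was called, and their median log2 fold change was -0.47. The cyclin-dependent kinase inhibitor Cdkn2b stood at 4.07 and 2.21 against 7.15 and 8.82 CPM (a log2 fold change of -1.35, SE 0.44) and Tmcc2, a coiled-coil membrane protein, at 21.1 and 23.1 against 37.7 and 38.7 CPM (-0.79, SE 0.20). Kdr, the VEGF receptor that is high in aerocytes, stood at 377 and 300 against 422 and 454 CPM (-0.37, SE 0.20, 95% interval -0.85 to 0.10). Ednrb, the endothelin receptor often used beside Car4 to name aerocytes, showed no such order. It stood at 9.63 and 22.5 CPM in tdTomato+ and at 11.8 and 20.6 CPM in ZsGreen+ libraries, with overlapping groups (log2 fold change -0.01, SE 0.45). Its 95% interval of -1.09 to 1.07 takes in nearly the whole difference of Car4. Kitl, the ligand of Kit, stood at 51.8 and 81.6 against 41.8 and 143 CPM, spread widely within the ZsGreen+ group.

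**Figure D2:**
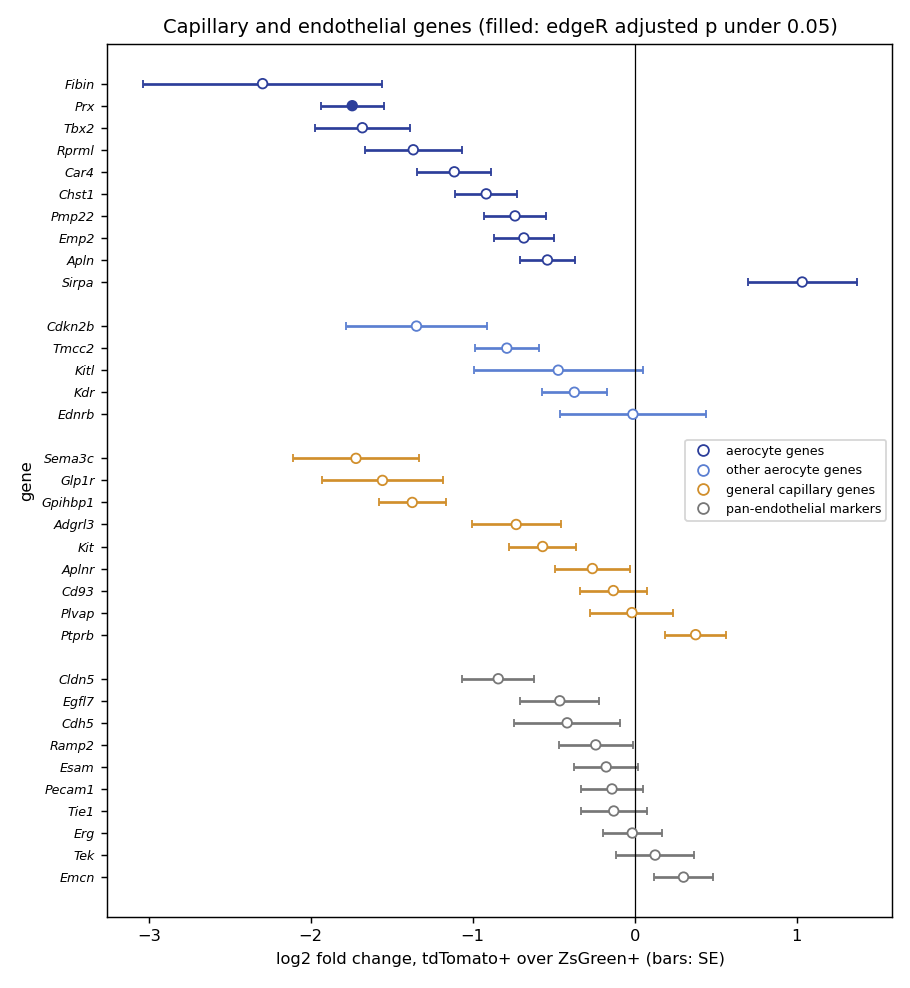
Log2 fold change, tdTomato+ over ZsGreen+, with its standard error, for the 10 aerocyte genes, 5 other aerocyte genes, 9 general capillary genes and 10 pan-endothelial markers; filled points have an edgeR adjusted p under 0.05. Prx is the only filled point, and the pan-endothelial markers lie between -0.84 and 0.30.

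General capillary genes were set beside the aerocyte genes to show which values are shared. Of 9 tested none was called, 8 had a log2 fold change below 0, and the median was -0.57. Gpihbp1, the capillary anchor of lipoprotein lipase, stood at 243 and 313 against 709 and 730 CPM (a log2 fold change of -1.37, SE 0.21, edgeR adjusted p = 0.0796), a difference of the size seen in Rprml. Differences in Sema3c, a secreted semaphorin, and Glp1r, the receptor of glucagon-like peptide, were larger but wider in error. Sema3c stood at 64.4 and 59.0 against 118 and 288 CPM (-1.72, SE 0.39, edgeR adjusted p = 0.201). Glp1r stood at 12.1 and 12.2 against 22.4 and 48.9 CPM (-1.56, SE 0.37, edgeR adjusted p = 0.219). Kit, the receptor tyrosine kinase, stood at 123 and 88.6 against 160 and 154 CPM (-0.57, SE 0.21). Adgrl3 had a log2 fold change of -0.73. Ptprb, the only gene of the 9 above 0, stood at 1305 and 1208 against 923 and 1013 CPM (0.38, SE 0.19). In Plvap (-0.02), Cd93 (-0.13) and Aplnr (-0.26) the groups overlapped. The summed level of the 9 was 8280 and 8440 CPM in tdTomato+ and 9666 and 8482 CPM in ZsGreen+ libraries. Whether aerocyte genes differed more than general capillary genes was not tested.

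None of 10 pan-endothelial markers was called, and the median of their log2 fold changes was -0.16. Their summed level was 9959 and 10150 CPM in tdTomato+ and 13040 and 11230 CPM in ZsGreen+ libraries, lower in both tdTomato+ libraries. Scaling to that sum moved the median of all genes by 0.26 on the log2 scale and the median of the members to -0.74. Counted per 1000 pan-endothelial counts, Prx stood at 3.19 and 2.82 against 6.93 and 9.95, and Car4 at 2.91 and 3.03 against 5.83 and 4.74. On this scale 9 of the 10 members still lay below in both tdTomato+ libraries and 1 above, and so they did in deposited TPM.

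Levels of different genes can be compared per transcript length, in the TPM the authors deposited. In ZsGreen+ libraries Pmp22 was highest at 195 ± 1.43 TPM, followed by Apln at 88.2 ± 18.5 and Car4 at 81.5 ± 10.8 TPM, whose libraries overlapped (SD, n = 2 throughout). Emp2 at 37.5 ± 0.16, Prx at 32.5 ± 8.43, Rprml at 27.8 ± 3.27, Chst1 at 26.4 ± 2.46 and Sirpa at 21.1 ± 6.65 TPM formed a run in which each gene's libraries overlapped those of the next. Tbx2 at 8.60 ± 2.38 TPM and Fibin at 1.44 ± 0.40 TPM were lowest and apart from their neighbours.

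In tdTomato+ libraries the order was again led by Pmp22 at 131 ± 21.3 TPM and Apln at 66.8 ± 0.39 TPM. Sirpa was now at 49.0 ± 15.6 TPM, overlapping Car4 at 42.3 ± 0.38 TPM. Emp2 stood at 26.0 ± 1.61 and Chst1 at 15.3 ± 0.85 TPM. Prx, at 10.5 ± 1.21 TPM, ranked 8 of 10 against 5 of 10 in ZsGreen+ libraries and overlapped Rprml at 11.9 ± 2.52 TPM. Tbx2 at 2.93 ± 0.42 TPM and Fibin at 0.31 ± 0.17 TPM stayed lowest.

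**Figure D3:**
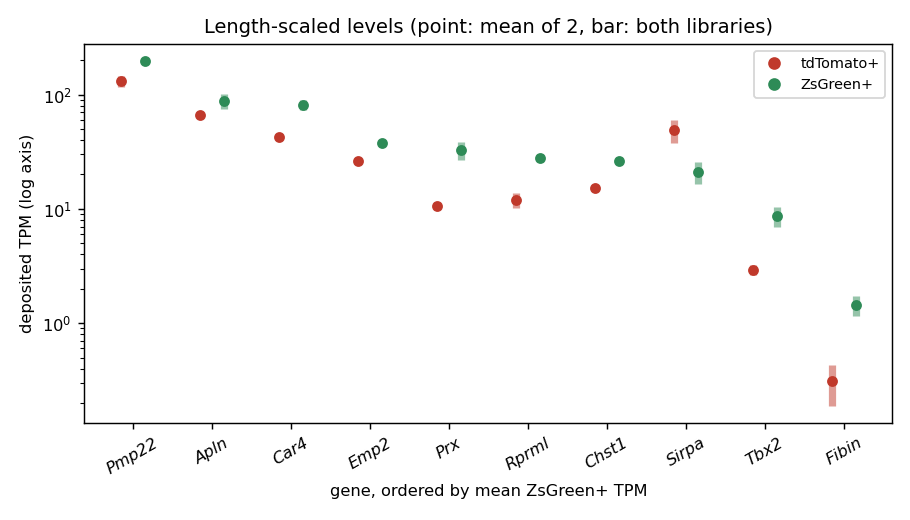
Deposited TPM on a log axis for the 10 aerocyte genes, ordered by their ZsGreen+ mean; points are means of 2 libraries and bars join both libraries. Prx stands at 10.5 TPM in tdTomato+ against 32.5 TPM in ZsGreen+ libraries, and Sirpa at 49.0 against 21.1 TPM.

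Markers of other cell types differed between the groups beside the aerocyte genes. Lymphatic endothelial markers lay lower in tdTomato+ libraries, and edgeR called 3 of 5 tested lower, against 0.137% of all tested genes. These were Reln (edgeR adjusted p = 0.0465), Mmrn1 (edgeR adjusted p = 0.0432) and Thy1 (edgeR adjusted p = 0.0304). Prox1, the lineage regulator, stood at 4.13 and 3.78 against 6.90 and 17.9 CPM. Fibroblast markers summed to 238 and 439 against 96.7 and 120 CPM and type 2 epithelial markers to 471 and 550 against 337 and 202 CPM, higher in both tdTomato+ libraries, with none of 9 and none of 8 called. Type 1 markers summed to 92.3 and 118 against 163 and 248 CPM, with none of 8 called. Pdpn and Clic5, which endothelial cells also express, carried that order at 15.4 and 6.88 against 47.6 and 42.9 CPM and at 51.8 and 57.9 against 83.6 and 168 CPM. Pericyte and smooth muscle markers summed to 27.7 and 45.3 against 29.7 and 35.0 CPM and overlapped. The part of these differences in the aerocyte values was not tested.

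**Figure D4:**
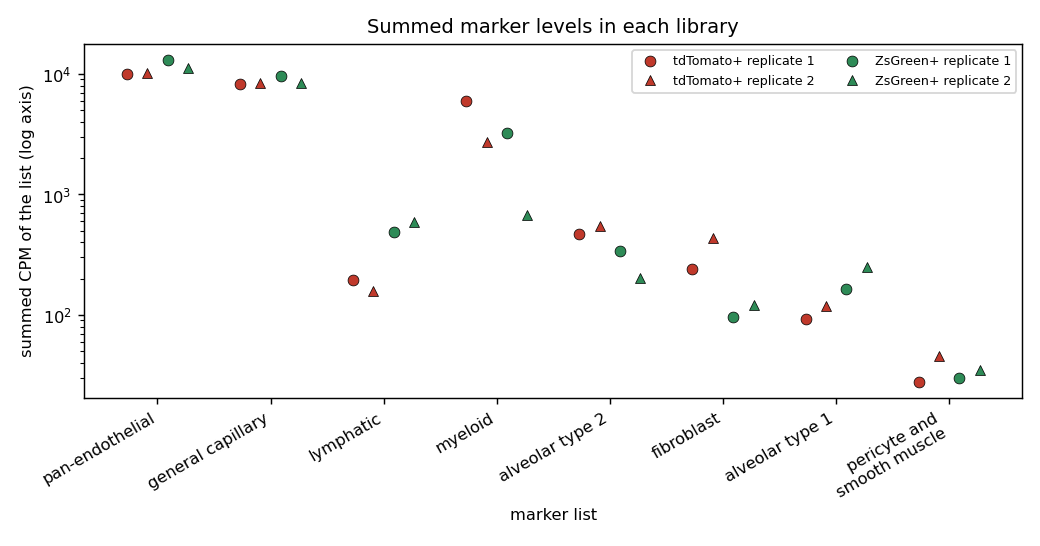
Summed CPM on a log axis of 8 marker lists in each library. Lymphatic sums are lower in tdTomato+ libraries (195 and 158 against 487 and 595 CPM), fibroblast and type 2 sums are higher, and myeloid sums are higher in replicate 1 than in replicate 2 of either group.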

How the data were processed

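RNA was extracted from sorted cells with a micro kit, amplified over the whole transcriptome and sequenced on an MGI platform, per the labels' protocols; the protocols mention no molecular identifiers, so reads of one molecule may be counted more than once. RSEM 1.3.1, DESeq2 1.4.5 and GRCm38 are named in the submitters' processing notes, without a role. Per the file headers the authors deposited read counts, which are estimated counts and not whole for 16.2% to 17.9% of values, and these were rounded for tests. The TPM values are as the authors deposited them. The FPKM values and the normalized counts, a signal, that the authors deposited were not used.

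edgeR 4.0.16 (R 4.3.3) compared the groups by a quasi-likelihood F-test (two-sided), with TMM scaling and filterByExpr with a minimum count of 10, and p-values were adjusted by Benjamini-Hochberg over 13177 genes. Standard errors divide the size of the log2 fold change by the root of F, and intervals are 95%. A 2 against 2 design allows no useful permutation test. On data simulated for this comparison over 13177 genes, edgeR called 34% of 50 genes changed 2-fold and 96% of 50 changed 4-fold, and 3 of 12793 unchanged genes; the changed genes all had a mean of at least 5 CPM. Alternatives used limma 3.58.1 and DESeq2 1.42.0 among others.

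The members, gene lists and motifs were chosen with earlier results of these data known. Named are all members, the other aerocyte genes, and the families of the members except the carbonic anhydrases and T-box factors. Acta2, Cdh5, Pecam1, Aplnr, Kit, Kdr, Ednrb, Cd47 and the 5 genes most like Car4 are named too. From the carbonic anhydrases, the T-box factors and each further list up to 4 genes are named. These are the genes of smallest p among those averaging 1 CPM or more. Outside that rule, and after their values were seen, Lyz2, Ager, Prox1, Sox10, Gm15541, Adgrl3, Ptprb, Plvap and Cd93 are named. Of 7 listed genes without a row in the table nothing is reported. Gene spans come from the table and equal those of the RefSeq table of GRCm38.p6 for all 10 members.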

Additional observations from a re-analysis of the deposited data

How the results depend on the processing

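All 10 members kept their direction under the 14 alternatives (Fibin under 13, since a minimum count of 50 removed it). Members called lower went from 1 to 0 with libraries scaled to pan-endothelial markers and on log2(TPM + 1) or log2(TPM + 0.1), and to 6 with DESeq2, 2 with no filter on low counts and 8 with a replicate block. Members called higher went from 0 to 1 with the replicate block. Leaving out single libraries gave 0 to 2 members lower and 0 to 1 higher. The 40 calls over all genes became 15, 326, 128 and 934 with pan-endothelial scaling, DESeq2, no filter and the replicate block, and 22 on log2(TPM + 0.1). Without tdTomato+ replicate 1 or 2 they were 17 and 4, without ZsGreen+ replicate 1 or 2 they were 304 and 26. The cause was not tested. The median log2 fold change of the members lay between -1.15 and -0.74. The median over all genes shifted by 0.13 and 0.14 on log2(TPM + 1) and log2(TPM + 0.1).

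The labels do not say that equal replicate numbers mark a shared mouse or day, so the block is an alternative only; deviations of same-numbered libraries from their group means correlated over 13177 genes (r = 0.455, 2 pairs). With the block 679 genes were called higher and 255 lower. Prx then had a log2 fold change of -1.74, Car4 -1.09, Tbx2 -1.68 (edgeR adjusted p = 2e-06) and Sirpa 1.07 (edgeR adjusted p = 2.15e-05).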
